A study of Bos grunniens with 18 samples.

Results

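The genes described here are 8 genes used as markers of eosinophils and basophils: *IL5RA*, *CCR3*, *PTGDR2*, *FCER1A*, *MS4A2*, *HDC*, *ALOX15* and *GATA2*. They were taken by gene name from the expression table of yak whole blood, which lists 20607 genes. A row was found for 7 of the 8, each with 1 identifier, and *GATA2* was not analysed here. All 7 passed the filter on low counts and were among the 14508 genes tested.

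Blood of adult female yaks (*Bos grunniens*), aged 4 to 8 years, was sampled in anestrus (the Y-A group), in estrus (the Y-E group) and in pregnancy (the Y-P group), with 6 libraries per group. The study describes 6 cows of an inseminated herd, whose estrus had been synchronised with a progesterone pessary, sodium cloprostenol and GnRH. The day of gestation of the Y-P samples and any allele or strain of the animals are not given in the sources used here. Every sample was unsorted whole blood lysed in TRIzol LS, and no group was enriched for eosinophils or basophils.

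Total counts ranged from 30247267 to 48401076 per library. The share of counts from 6 hemoglobin genes ran from 3.10% to 16.7% in the Y-A libraries, from 0.0272% to 0.376% in the Y-P libraries and from 0.0899% to 0.713% in 5 of the Y-E libraries. Y-E replicate 6, at 8.36%, stood apart from the other Y-E libraries, and the tests that involve Y-E are given with it and, as a fold change or an adjusted p, without it. Levels within a gene are given as CPM, the counts scaled to a common library total after TMM normalization. Levels of different genes are compared as FPKM, which also divides by gene length. The ratios of counts and the summed CPM of gene lists are not divided by gene length and are compared only between libraries.

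Eosinophils and basophils are granulocytes that take part in the defence against parasites and in allergic inflammation. Eosinophils depend on interleukin-5 for their production and survival and move into tissues along eotaxin gradients, while basophils carry the high-affinity IgE receptor and release histamine and lipid mediators when it is cross-linked. *IL5RA* encodes the ligand-binding chain of the interleukin-5 receptor and *CCR3* the eotaxin receptor. *PTGDR2* encodes the prostaglandin D2 receptor CRTH2, which is also found on some T cells. *FCER1A* and *MS4A2* encode the alpha and the beta chain of the IgE receptor, *HDC* the enzyme that makes histamine, and *ALOX15* a lipoxygenase that is abundant in eosinophils of several species.

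The genes lie apart from each other, with no other gene of the table overlapping any of them. *IL5RA* (ENSBGRG00000023363) was annotated at chr22:42018691-42059025 on the minus strand. *CCR3* (ENSBGRG00000010335) lay on the plus strand of the same chromosome at chr22:8841392-8842468. *PTGDR2* (ENSBGRG00000020949) was at chr29:12813026-12817765 and *FCER1A* (ENSBGRG00000012407) at chr3:6857535-6865081, both on the plus strand. *MS4A2* (ENSBGRG00000014039) was at chr13:4465891-4475780 and *HDC* (ENSBGRG00000011998) at chr11:47833868-47856495, both on the plus strand. *ALOX15* (ENSBGRG00000025402) was at chr19:41395237-41406471 on the minus strand. The positions are those of the deposited table, for which the study names the genome only as the yak assembly of Ensembl v101.

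The 7 genes covered a wide range of levels, from a lipoxygenase among the higher genes of the set to a histamine enzyme that was barely detected. The mean FPKM over the 18 libraries was 164.8 ± 72.2 (SD) for *ALOX15* and 111.0 ± 38.5 for *CCR3*. It was 37.5 ± 12.2 for *IL5RA*, 16.4 ± 7.17 for *PTGDR2* and 10.3 ± 5.28 for *MS4A2*. It was 7.45 ± 2.66 for *FCER1A* and 0.182 ± 0.141 for *HDC*. The order was the same in all 18 libraries at 3 of its 6 steps: *CCR3* was above *IL5RA*, *IL5RA* above *PTGDR2*, and *FCER1A* above *HDC* in FPKM in every library. Neighbours were not separated at the other steps: FPKM of *ALOX15* exceeded that of *CCR3* in 15 of 18 libraries, *PTGDR2* that of *MS4A2* in 14 and *MS4A2* that of *FCER1A* in 13.

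The label was also checked against further genes of these cells. Of 14 eosinophil granule and surface genes, 4 had a row, and the granule protein genes *EPX*, *PRG2* and *RNASE2* were not analysed here. By mean FPKM, the 2 highest of the 4 were *CD9*, a tetraspanin that platelets also carry, with a mean FPKM of 95.3, and *ADGRE1*, a surface receptor of eosinophils and monocytes, with 18.9. Of 13 basophil and mast cell genes, 6 had a row. The 2 highest were *GCSAML*, with 232 to 1097 counts per library and a mean FPKM of 28.1, and *SLC18A2*, the vesicular monoamine transporter that loads histamine, with 261 to 433 counts and a mean FPKM of 2.88. *CPA3*, the mast cell carboxypeptidase, had 0 to 54 counts per library and a mean FPKM of 0.197. *KIT*, the stem cell factor receptor of mast cells and progenitors, had 154 to 464 counts and a mean FPKM of 2.51. The 5 receptor genes of the set were well above the floor of 3 counts in every library, the lowest being *FCER1A* with at least 199 counts, while *HDC* and *CPA3* reached 0 counts in single libraries.

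Each pair of stages was compared to ask which genes differ with reproductive state. At the thresholds of the study, which ask for a 2-fold change, a log2 fold change of 1 or more in size, and for an adjusted p under 0.05 (edgeR quasi-likelihood test, Benjamini-Hochberg adjustment), 0 of the 7 genes passed in any comparison. Over all genes tested, 0.0138% passed in Y-E vs. Y-A, 1.43% in Y-P vs. Y-A and 2.67% in Y-P vs. Y-E. With the adjusted p alone, again 0 of 7 passed in each comparison, beside 0.0207%, 5.83% and 14.4% of all genes tested. Of the 21 gene comparisons, 2 had an unadjusted p under 0.05, those of *FCER1A* and *MS4A2* in Y-P vs. Y-A. The share of all genes tested with such a p was 22.7% in that comparison, 6.2% in Y-E vs. Y-A and 29.3% in Y-P vs. Y-E.

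The size of the intervals shows what these data could and could not resolve. In 12 of the 21 gene comparisons the 95% interval of the log2 fold change lay within 1 in both directions, and in 9 it did not. In 0 of the 21 were the CPM of the groups without overlap. Of all genes tested, 0.131% were higher and 0.172% lower without overlap in Y-E vs. Y-A, 1.23% and 2.32% in Y-P vs. Y-A, and 2.19% and 3.84% in Y-P vs. Y-E. The median log2 fold change of the 7 genes was 0.24 in Y-E vs. Y-A, where that of all genes tested was −0.01. It was 0.52 beside 0.03 in Y-P vs. Y-A, and 0.27 beside 0.04 in Y-P vs. Y-E. A median of 7 genes is the estimate of 1 of them. In Y-P vs. Y-A that gene was the barely detected *HDC* (SE 0.70, interval −0.96 to 1.99). The 7 genes come from the same libraries, some of them vary together, and no test of the set is given. In whole blood, a change in the number of cells of a type and a change in RNA per cell cannot be told apart.

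**Figure D1:**
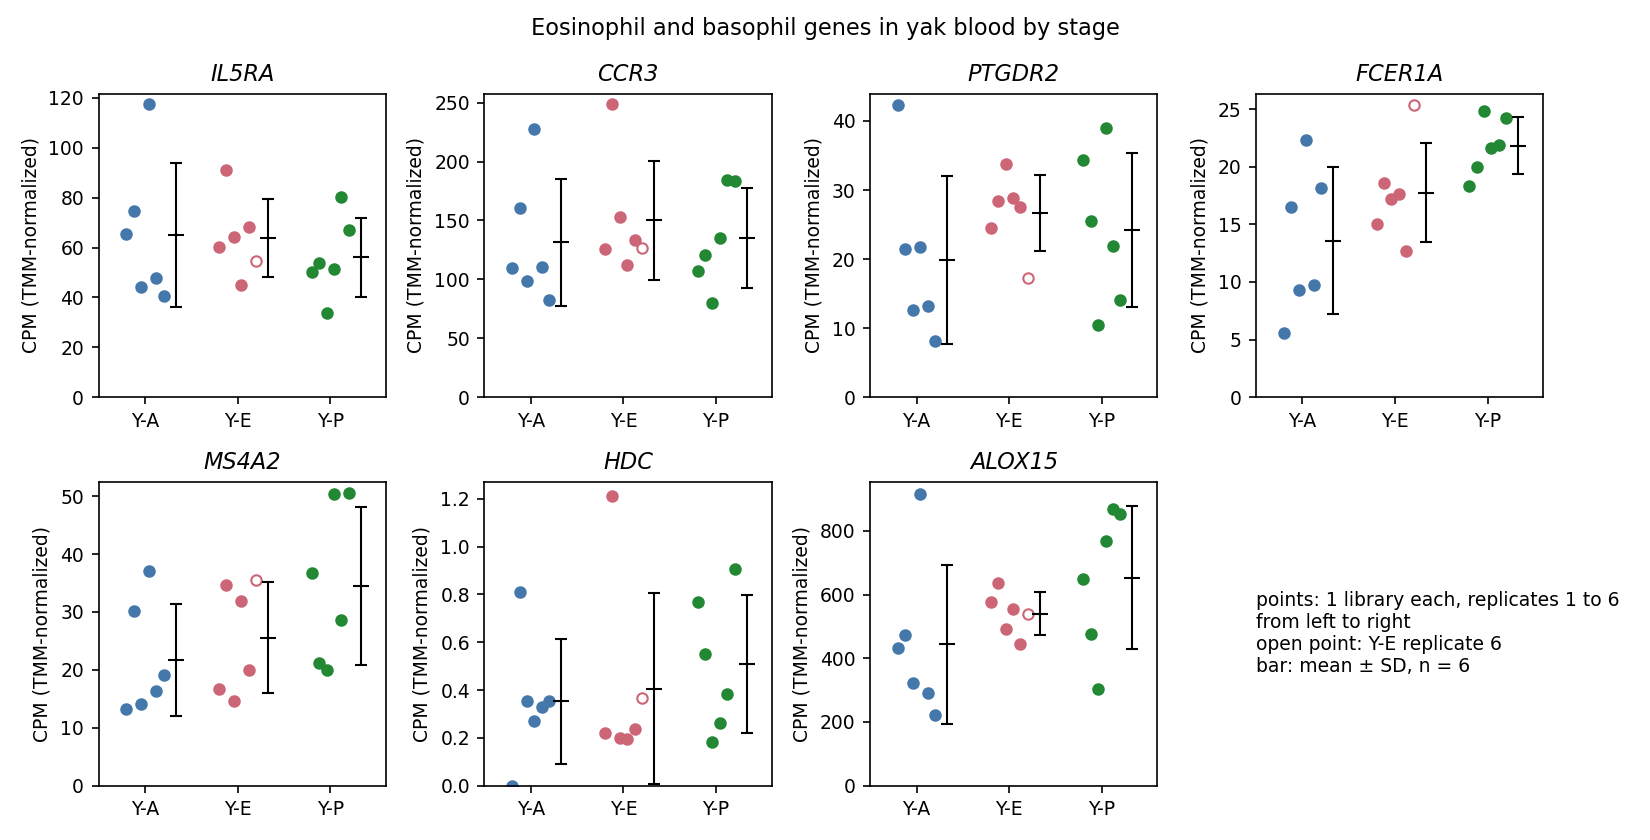
CPM after TMM normalization of the 7 genes (vertical axes, 1 panel per gene) in the libraries of each stage; points are single libraries in the order of their replicate numbers, the open point is Y-E replicate 6, and bars are mean ± SD (n = 6). The groups overlap in every panel, and the *FCER1A* points of Y-P lie between 18.3 and 24.8 CPM while those of Y-A reach down to 5.58.

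No difference between stages was resolved for *IL5RA* or *CCR3*, receptors that eosinophils and basophils both carry. *IL5RA* had 40.6 CPM in the lowest, a median of 56.8 and 117.6 CPM in the highest Y-A library. The Y-E libraries had 45.1 CPM at the lowest, a median of 62.1 and 90.9 at the highest, and the Y-P libraries 33.8, 52.7 and 80.3. The ranges overlapped almost fully, and Y-A replicate 4 was the highest of all 18 libraries. The log2 fold change of *IL5RA* was −0.03 (SE 0.25, 95% interval −0.54 to 0.49, adjusted p = 0.999, edgeR) in Y-E vs. Y-A. It was −0.21 (interval −0.73 to 0.30, adjusted p = 0.659, edgeR) in Y-P vs. Y-A and −0.19 (interval −0.70 to 0.33, adjusted p = 0.671, edgeR) in Y-P vs. Y-E. Without Y-E replicate 6 the values against Y-E libraries were 0.01 in Y-E vs. Y-A and −0.23 in Y-P vs. Y-E. A 2-fold change of *IL5RA* lay outside all 3 intervals.

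*CCR3*, the eotaxin receptor, gave the same picture. Its Y-A libraries had 82.8 CPM at the lowest, a median of 110.0 and 227.5 at the highest. The Y-E libraries ran from 112.0 to 249.2 CPM with a median of 130.0, and the Y-P libraries from 79.6 to 184.3 CPM with a median of 127.6. The highest Y-A and Y-E values were single libraries, Y-A replicate 4 and Y-E replicate 2, and the other libraries of these groups lay at or below 160.2 CPM. The estimate of the log2 fold change was 0.19 (interval −0.34 to 0.72, adjusted p = 0.999, edgeR) in Y-E vs. Y-A and 0.04 (interval −0.49 to 0.57, adjusted p = 0.947, edgeR) in Y-P vs. Y-A. In Y-P vs. Y-E it was −0.15 (interval −0.69 to 0.38, adjusted p = 0.746, edgeR). Without Y-E replicate 6 the estimates of *CCR3* were 0.24 in Y-E vs. Y-A and −0.20 in Y-P vs. Y-E. No interval of the 18 libraries reached a 2-fold change in either direction.

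*PTGDR2*, the prostaglandin D2 receptor, had a wider range over the 18 libraries, 5.21-fold in CPM, than the other genes except *HDC*, whose lowest library was at 0. Its Y-A libraries ran from 8.11 to 42.3 CPM with a median of 17.4. The Y-E libraries ran from 17.2 to 33.7 CPM with a median of 28.0, and the Y-P libraries from 10.5 to 38.9 CPM with a median of 23.7. Its lowest Y-E value was that of replicate 6, and without it the Y-E libraries lay between 24.4 and 33.7 CPM. The Y-E libraries were close together, whereas the Y-A and Y-P libraries were spread on both sides of them. For *PTGDR2* the log2 fold change was 0.42 (SE 0.35, interval −0.30 to 1.14, adjusted p = 0.999, edgeR) in Y-E vs. Y-A, and this interval included a 2-fold rise. It was 0.28 (interval −0.44 to 1.0, adjusted p = 0.683, edgeR) in Y-P vs. Y-A and −0.14 (interval −0.86 to 0.58, adjusted p = 0.832, edgeR) in Y-P vs. Y-E. Without Y-E replicate 6 it was 0.52 in Y-E vs. Y-A and −0.24 in Y-P vs. Y-E.

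The chains of the IgE receptor had the largest estimates of the set in Y-P vs. Y-A. *FCER1A*, the IgE-binding alpha chain, had 5.58, 9.33, 9.69, 16.5, 18.1 and 22.3 CPM in the Y-A libraries, in rising order. The Y-E libraries had 12.7, 15.0, 17.2, 17.7, 18.6 and 25.4 CPM, the last being replicate 6, and the Y-P libraries 18.3, 19.99, 21.6, 21.9, 24.2 and 24.8 CPM. The Y-P libraries were the closest together, and 5 of the 6 Y-A libraries lay below all of them. The exception was Y-A replicate 4. With library numbers taken as animals, *FCER1A* was higher in Y-P than in Y-A in 5 of 6.

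The log2 fold change of *FCER1A* in Y-P vs. Y-A was 0.68 (SE 0.25, interval 0.16 to 1.21, adjusted p = 0.111, edgeR), and without Y-E replicate 6 it remained 0.68, with an adjusted p of 0.101. A block for the replicate number gave *FCER1A* a log2 fold change of 0.79 (SE 0.21) and an adjusted p of 0.0329 over the 18 libraries and 0.0439 without Y-E replicate 6 (edgeR). *FCER1A* was thus the 1 gene of 7 with an adjusted p under 0.05 in the blocked test, beside 8.84% of all genes tested, and at 0.79 it stayed below the fold threshold. The two-sided exact permutation test of its mean log2(CPM + 1) gave p = 0.0195, where 6 libraries against 6 cannot give less than 0.00216. This p was not adjusted over the 21 gene comparisons. In Y-P vs. Y-A the same exact test gave p = 0.0844 for *MS4A2* and p = 0.136 for *ALOX15*. In Y-E vs. Y-A the log2 fold change of *FCER1A* was 0.39 (interval −0.14 to 0.91, adjusted p = 0.945, edgeR), and 0.26 with an adjusted p of 0.895 without Y-E replicate 6. In Y-P vs. Y-E it was 0.30 (interval −0.23 to 0.82, adjusted p = 0.473, edgeR), and 0.43 with an adjusted p of 0.299 without Y-E replicate 6. The exact permutation p of that comparison was 0.0649 with and 0.00866 without that library, where 6 libraries against 5 cannot give less than 0.00433. Neither p was adjusted over the 21 gene comparisons. Y-E replicate 6 had the highest *FCER1A* level of all 18 libraries, so leaving it out lowers the Y-E level.

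Markers of other cells moved in the same comparison. All 4 reticulocyte markers tested fell in Y-P vs. Y-A, and their summed level ran from 438.6 to 10500 CPM in Y-A libraries and from 39.0 to 121.7 CPM in Y-P libraries, with no marker at 0 throughout. Scaling by library size alone, without TMM, gave *FCER1A* a log2 fold change of 0.84 (adjusted p = 0.0468, edgeR), while the median of all genes tested moved from 0.03 to 0.19. Of 5 T cell markers tested, 2 rose in Y-P vs. Y-A, with a summed level of 733.2 to 918.8 CPM in Y-A libraries and of 831.4 to 1519 CPM in Y-P libraries. Of 3 platelet markers tested 1 fell, with a summed level of 277.2 to 366.0 CPM in Y-A libraries and of 152.7 to 207.5 CPM in Y-P libraries, *GP1BB* being at or under 3 counts throughout. Of 6 neutrophil markers 1 fell, with 4111 to 9321 CPM in Y-A libraries and 2641 to 5945 CPM in Y-P libraries. No B cell, monocyte and dendritic cell or progenitor marker passed in Y-P vs. Y-A. The part of these cells in the *FCER1A* estimate was not tested.

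*MS4A2*, the beta chain of the same receptor, also had its highest values in pregnancy. The Y-A libraries ran from 13.2 to 37.0 CPM with a median of 17.8. The Y-E libraries ran from 14.6 to 35.5 CPM with a median of 25.9, and the Y-P libraries from 19.96 to 50.5 CPM with a median of 32.6. Y-P replicates 4 and 6, at 50.3 and 50.5 CPM, were above every library of the other stages, while the other 4 Y-P libraries lay within the Y-A range. For *MS4A2* the log2 fold change in Y-P vs. Y-A was 0.67 (SE 0.31, interval 0.02 to 1.32, adjusted p = 0.204, edgeR), and with the replicate block it was 0.71 (adjusted p = 0.0508, edgeR). It was 0.24 (interval −0.41 to 0.89, adjusted p = 0.999, edgeR) in Y-E vs. Y-A and 0.43 (interval −0.21 to 1.08, adjusted p = 0.385, edgeR) in Y-P vs. Y-E. Without Y-E replicate 6 these 2 estimates of *MS4A2* were 0.12 (adjusted p = 0.981) and 0.55 (adjusted p = 0.289). With library numbers taken as animals, 5 of 6 had a higher level in Y-P than in Y-A, and the exception was number 2, whose level went from 30.2 CPM in Y-A to 21.1 CPM in Y-P.

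**Figure D2:**
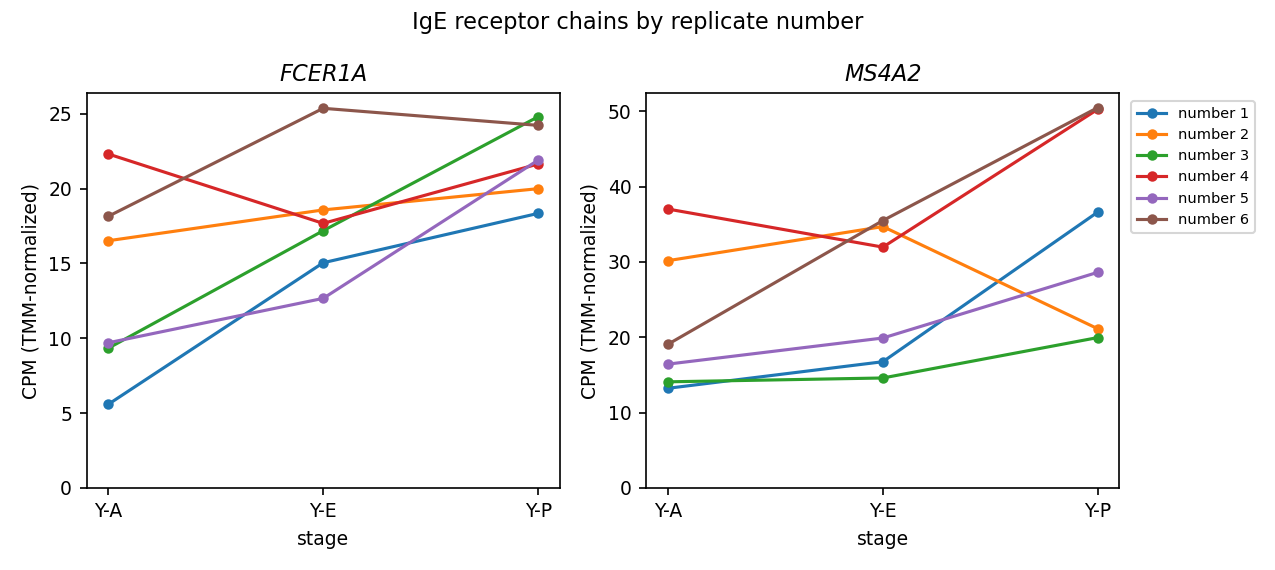
CPM of *FCER1A* and *MS4A2* (vertical axes) in the 3 stages, with libraries of the same replicate number joined by a line. For *FCER1A* number 1 runs from 5.58 CPM in Y-A to 18.3 CPM in Y-P, and number 4 is the line that starts highest, at 22.3 CPM.

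The 2 enzymes lay at opposite ends of the range. *HDC*, which makes histamine from histidine, had 0 to 37 counts per library, and Y-A replicate 1 had 0 counts, which allows up to 0.0840 CPM. Its Y-A libraries ran from 0 to 0.810 CPM with a median of 0.343. The Y-E libraries ran from 0.194 to 1.21 CPM with a median of 0.229, and the Y-P libraries from 0.181 to 0.907 CPM with a median of 0.468. The groups overlapped over nearly their whole range. For *HDC* the log2 fold change was 0.19 (SE 0.71, interval −1.29 to 1.67, adjusted p = 0.999, edgeR) in Y-E vs. Y-A and 0.52 (interval −0.96 to 1.99, adjusted p = 0.717, edgeR) in Y-P vs. Y-A. In Y-P vs. Y-E it was 0.33 (interval −1.14 to 1.80, adjusted p = 0.807, edgeR). Without Y-E replicate 6 it was 0.22 in Y-E vs. Y-A and 0.30 in Y-P vs. Y-E. The intervals of *HDC* in these 2 comparisons included a 2-fold difference in either direction.

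*ALOX15*, which oxygenates arachidonic and linoleic acid, was the most abundant gene of the set. Its Y-A libraries ran from 221.9 to 917.5 CPM with a median of 378.2. The Y-E libraries ran from 445.3 to 636.7 CPM with a median of 546.6, and the Y-P libraries from 304.2 to 869.8 CPM with a median of 709.0. The Y-E libraries formed a narrow band, 5 of the 6 Y-A libraries lay at or below 472.8 CPM, and the highest value of all 18 was again Y-A replicate 4. For *ALOX15* the log2 fold change was 0.29 (SE 0.29, interval −0.31 to 0.88, adjusted p = 0.999, edgeR) in Y-E vs. Y-A. In Y-P vs. Y-A it was 0.56 (interval −0.04 to 1.16, adjusted p = 0.255, edgeR), and in Y-P vs. Y-E 0.27 (interval −0.33 to 0.87, adjusted p = 0.575, edgeR). Without Y-E replicate 6 the estimates were again 0.29 in Y-E vs. Y-A and 0.27 in Y-P vs. Y-E. Without Y-A replicate 4 the estimate of *ALOX15* in Y-P vs. Y-A was 0.91 (adjusted p = 0.0400, edgeR), and that of *FCER1A* was 0.88 (adjusted p = 0.0475, edgeR). This library was the highest of Y-A for both genes, so leaving it out lowers the Y-A level. No other fit that left out a single library brought either gene under 0.05. With the library kept, *FCER1A* passed in some other settings, such as the replicate block (adjusted p = 0.0329, edgeR).

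**Figure D3:**
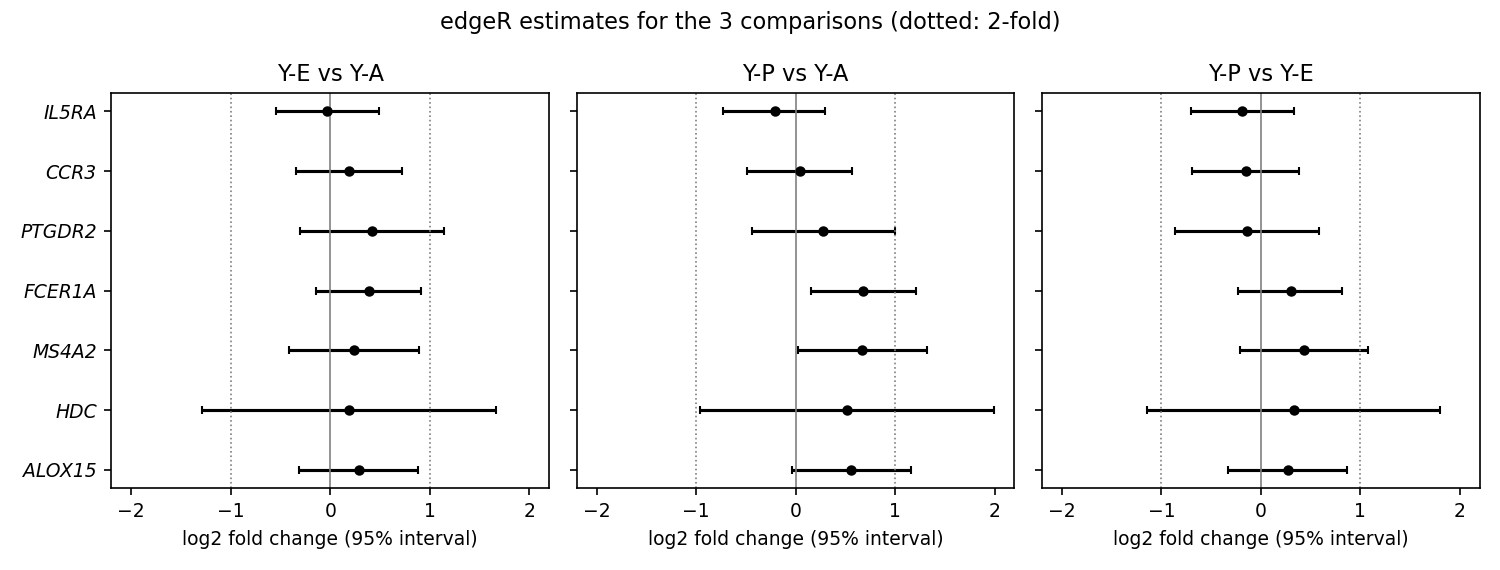
edgeR log2 fold changes with 95% intervals of the 7 genes (rows) in the 3 comparisons (panels); the dotted lines mark a 2-fold change in either direction. The intervals of *IL5RA* and *CCR3* stay between the dotted lines in every panel, and those of *HDC* are the widest, reaching from −1.29 to 1.67 in Y-E vs. Y-A.

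The spread between libraries of one stage was large for these genes. The within-stage SD of log2(CPM + 1) was 0.632 for *PTGDR2*, 0.567 for *MS4A2*, 0.543 for *ALOX15*, 0.470 for *CCR3*, 0.451 for *IL5RA* and 0.446 for *FCER1A*, where the median of all genes tested was 0.296. Between 82.1% of all genes tested, for *FCER1A*, and 94.0%, for *PTGDR2*, had a smaller SD than these 6 genes. For *HDC* the SD was 0.300, with levels below the pseudocount of 1 in most libraries. Stage took 37.4% of the sum of squares of *FCER1A*, 21.8% of *ALOX15* and 21.5% of *MS4A2*, and 4.19% of *IL5RA* and 4.51% of *CCR3*, beside a median of 18.1% over all genes tested. The replicate number took 53.3% for *PTGDR2*, 52.2% for *MS4A2* and 24.6% for *IL5RA*, beside a median of 32.5%.

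This spread was shared between some of the genes. Over the 18 libraries, Pearson's r of log2(CPM + 1) between *IL5RA* and *CCR3* was 0.918, and 0.941 after the stage means were taken away. Among 10669 tested genes with a name, *CCR3* was the gene most like *IL5RA*, and *IL5RA* was second for *CCR3*. These values describe libraries that share depth, cell mixture and normalization, and no test is given for them. Within single stages of 6 libraries, r of *IL5RA* and *CCR3* was 0.957 for Y-A, 0.912 for Y-E and 0.957 for Y-P.

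*ALOX15* moved with the same receptors in 2 of the stages. Its r with *IL5RA* after removal of the stage means was 0.848, from 0.979 within Y-A and 0.869 within Y-P to 0.214 within Y-E, and its r with *CCR3* was 0.830. *MS4A2* had an r of 0.599 with *FCER1A*, its partner chain, and of 0.649 with *ALOX15*. Within single stages the r of *MS4A2* with *FCER1A* was 0.863 for Y-A and 0.644 for Y-E. Within Y-P it was −0.014, so the 2 chains did not vary together there. After removal of the stage means, *FCER1A* and *PTGDR2* were the pair with the lowest r, −0.449. *FCER1A* had an r of 0.196 with *IL5RA*, so the IgE-binding chain and the interleukin-5 receptor did not vary together in these libraries. Without Y-E replicate 6 the values after removal of the stage means were 0.855, 0.836, 0.560, 0.674, −0.398 and 0.251 in the same order.

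**Figure D4:**
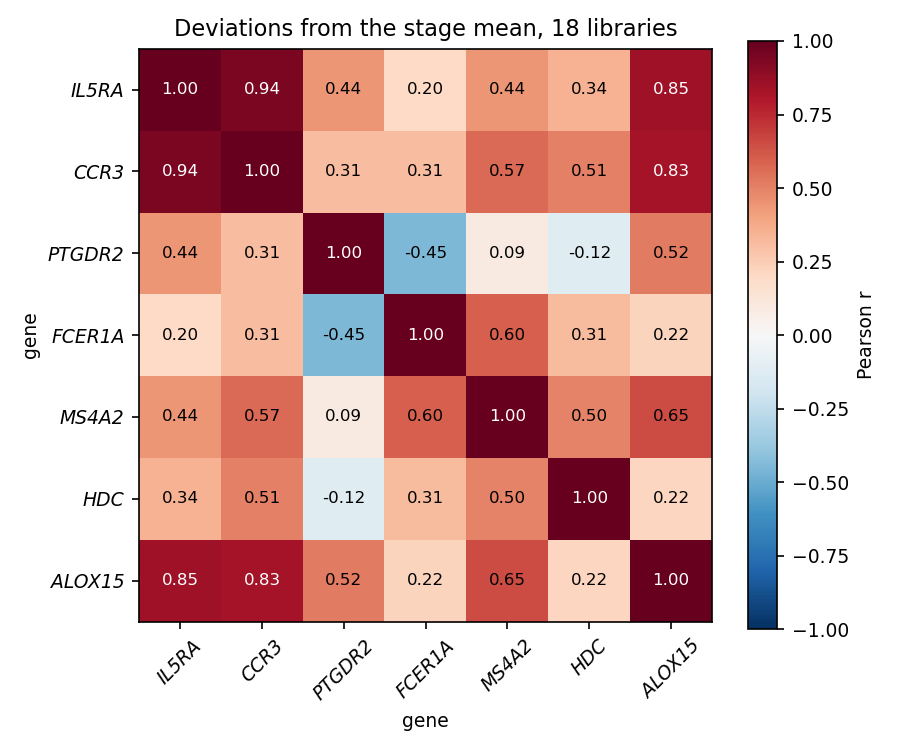
Pearson's r between the 7 genes (rows and columns) of the deviations of log2(CPM + 1) from the stage mean over 18 libraries, in color from −1 to 1. *IL5RA*, *CCR3* and *ALOX15* form the block with values from 0.83 to 0.94, and *FCER1A* with *PTGDR2* is the lowest cell at −0.45.

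The genes outside the set with the most similar pattern over the 18 libraries were listed for each member. For *IL5RA* and *CCR3* they were *ALOX5*, the leukotriene-forming lipoxygenase, with r = 0.850 and 0.947, and *ELAPOR1*, with r = 0.840 and 0.891. *ELAPOR1* was also first for *ALOX15* (r = 0.873), ahead of *COG7* (0.807) and the ATP receptor gene *P2RX1* (0.802). *PTGDR2* was most like *ADORA2A*, an adenosine receptor (0.799), *GRK6* (0.756) and *SRF* (0.753). *FCER1A* was most like *MRGBP* (0.796), *COX18* (0.782) and *TSTD3* (0.764), and *MS4A2* most like *EXTL2* (0.831), *MAPKAP1* (0.830) and *GGA2* (0.818). For *HDC* the genes were *NOSTRIN* (0.798), *CHRND* (0.778) and *ZNF555* (0.738), of which the first 2 had a mean FPKM of 0.138 and 0.178 and so were about as low as *HDC* itself.

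Since *IL5RA*, *CCR3* and *ALOX15* varied together, their ratios of counts within a library, which do not depend on the scaling of the library, were described as well. These 3 ratios were chosen after the values were seen and are given without a test. The ratio of *IL5RA* to *CCR3* lay between 0.365 and 0.599 over all 18 libraries, a 1.64-fold range, where *IL5RA* alone ranged 3.48-fold and *CCR3* alone 3.13-fold in CPM. In the Y-A libraries this ratio ran from 0.434 to 0.599 with a median of 0.479. In the Y-P libraries it ran from 0.365 to 0.467 with a median of 0.43, so the groups overlapped. The log2 difference of the ratio was −0.23 (SE 0.09) in Y-P vs. Y-A, with a higher ratio in 1 of 6 replicate numbers. In Y-E vs. Y-A it was −0.18 (SE 0.10) and in Y-P vs. Y-E −0.04 (SE 0.09), the same without Y-E replicate 6. The ratio of *ALOX15* to *IL5RA* was 5.46, 6.09, 6.33, 6.61, 7.33 and 7.80 in the Y-A libraries in rising order. It was 6.51, 7.00, 7.66, 9.59, 9.88 and 12.3 in the Y-E libraries, replicate 6 having 9.88, and 8.83, 9.01, 10.8, 12.7, 12.9 and 14.9 in the Y-P libraries.

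Every Y-P library thus had more *ALOX15* per *IL5RA* than every Y-A library, and the Y-E libraries overlapped with both. The log2 difference of the ratio was 0.79 (SE 0.15) in Y-P vs. Y-A, a 1.73-fold higher ratio, and it was higher in 6 of 6 replicate numbers. Of the 14507 other genes tested, 20, or 0.138%, had a ratio to *IL5RA* that was higher in Y-P than in Y-A without overlap, *ALOX15* among them. The ratio of *ALOX15* to *IL5RA* was chosen after its values were seen, so this share is not a test of it. In Y-E vs. Y-A the log2 difference was 0.39 (SE 0.16), or 0.35 without Y-E replicate 6, and in Y-P vs. Y-E it was 0.40 (SE 0.19), or 0.44 without it. Against *CCR3* the log2 difference of *ALOX15* in Y-P vs. Y-A was 0.56 (SE 0.15). The Y-A ratios ran from 2.64 to 4.03 with a median of 3.12 and the Y-P ratios from 3.82 to 6.04 with a median of 4.68, so that the groups overlapped. A ratio to *IL5RA* also rises where *IL5RA* is lower. The mean log2 ratio of *IL5RA* to *CCR3* was lower in Y-P than in Y-A by 0.23, with overlapping groups. The part of this in the ratio of *ALOX15* to *IL5RA* was not tested.

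**Figure D5:**
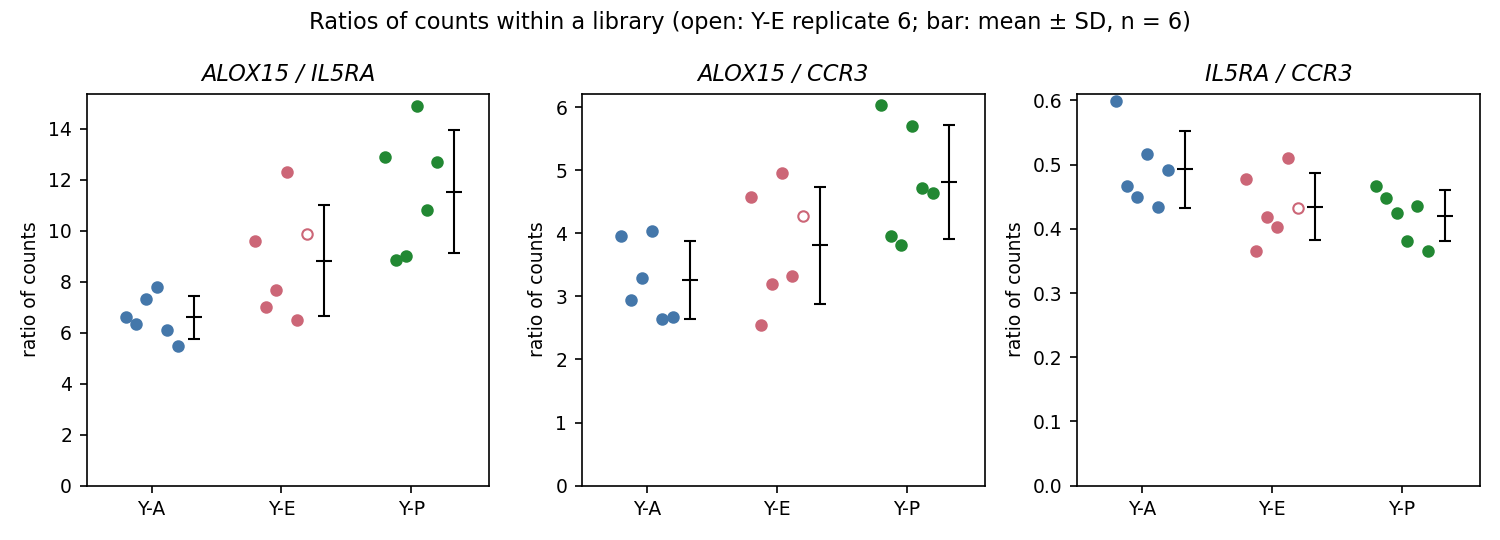
Ratios of counts within a library (vertical axes, no unit) of *ALOX15* to *IL5RA*, *ALOX15* to *CCR3* and *IL5RA* to *CCR3* in the 3 stages; points are libraries, the open point is Y-E replicate 6 and bars are mean ± SD (n = 6). In the first panel the Y-A points end at 7.80 and the Y-P points begin at 8.83.

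The wider pathway of these cells was described by 8 lists with 86 gene names, of which 52 had a row and 45 were tested. In Y-E vs. Y-A none of the 45 had an adjusted p under 0.05 (edgeR), in Y-P vs. Y-A 1 was higher and 3 were lower, and in Y-P vs. Y-E 3 were higher and 11 lower. As shares of the 45 these counts stand beside 2.22% higher and 3.61% lower of all genes tested in Y-P vs. Y-A, and 5.77% higher and 8.68% lower in Y-P vs. Y-E. With the fold threshold 0, 1 and 3 of the 45 were called in the 3 comparisons, beside 0.0138%, 1.43% and 2.67% of all genes tested.

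Ligands that act on eosinophils lay near the floor of detection. *IL5*, which drives eosinophil production, had 0 to 3 counts in any library, and *CSF2* had 0 to 5. The eotaxin genes *CCL24* and *CCL26* had 0 to 11 and 0 to 7 counts. None of the 4 ligand genes with a row was tested.

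The cytokine receptor chains that passed were lower in pregnancy, while the IgE receptor signalling genes had both higher and lower members. Of 5 cytokine receptor chains tested 2 fell in Y-P vs. Y-E: *CSF2RB*, the common beta chain that signals for *IL5RA*, by 0.72 on the log2 scale (SE 0.14, adjusted p = 0.00236, edgeR), and *IL13RA1* by 0.90 (SE 0.21, adjusted p = 0.00903). Without Y-E replicate 6 they fell by 0.79 and 0.83. *CSF2RB* and *IL13RA1* were the 2 highest of the list, with a mean FPKM of 90.8 and 90.7, and kept an adjusted p under 0.05 in all 22 other fits of this comparison. Of 12 IgE receptor signalling genes, 5 fell and 1 rose in Y-P vs. Y-E. The scaffold gene *GAB2* fell by 1.58 (SE 0.17, adjusted p = 0.000188, edgeR) and the exchange factor gene *VAV1* by 0.37 (SE 0.10, adjusted p = 0.0149), while the adaptor gene *LAT* rose by 0.50 (SE 0.14, adjusted p = 0.0222). Without Y-E replicate 6 *GAB2* fell by 1.63 and *VAV1* by 0.42, and *LAT* rose by 0.45. In Y-P vs. Y-A *GAB2* fell by 1.02 (SE 0.17, adjusted p = 0.00341, edgeR) and *LAT* rose by 0.54 (SE 0.14, adjusted p = 0.0303). The 2 highest genes of the list by mean FPKM were *PTPN6*, the phosphatase SHP-1, with 353.5, and *LCP2*, the adaptor SLP-76, with 344.8. *GAB2* passed on its adjusted p in every other fit of both comparisons, *VAV1* in 18 of 22, and *LAT* in 21 of 22 vs. Y-E and 16 of 23 vs. Y-A.

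Among 8 lipid mediator genes 1 fell in Y-P vs. Y-E, *ALOX5AP*, which presents arachidonic acid to the lipoxygenase of *ALOX5*, by 0.92 (SE 0.28, adjusted p = 0.0354, edgeR), or by 1.08 without Y-E replicate 6. *ALOX5AP* had a mean FPKM of 99.5, second in its list to *LTA4H*, the leukotriene A4 hydrolase, with 127.0. Of 3 histamine genes 1 fell in both comparisons with pregnancy: the receptor gene *HRH2* by 0.77 (SE 0.20, adjusted p = 0.0162, edgeR) vs. Y-E and by 0.71 (SE 0.20, adjusted p = 0.0448) vs. Y-A. Without Y-E replicate 6 *HRH2* fell by 0.85 vs. Y-E. The mean FPKM was 8.16 for *HRH2* and 21.5 for *HNMT*, which breaks down histamine. Of 4 granule and surface genes 1, *ADGRE1*, fell by 1.16 (SE 0.35, adjusted p = 0.0310, edgeR) vs. Y-E, or by 1.31 without Y-E replicate 6. None of 4 basophil and mast cell genes passed in any comparison. The calls of *ALOX5AP* and *ADGRE1* were kept in 11 and 15 of 22 other fits, and the Y-P vs. Y-A call of *HRH2* in 9 of 23.

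Of 9 transcription factor genes of the granulocyte lineages, *SPI1*, which encodes PU.1, fell by 1.16 (SE 0.19, adjusted p = 0.000800, edgeR) in Y-P vs. Y-E, or by 1.26 without Y-E replicate 6. It was also the highest of its list, with a mean FPKM of 504.2, ahead of *STAT5B*, a signal transducer of the interleukin-5 receptor, with 55.7. *GFI1* rose by 0.79 (SE 0.23, adjusted p = 0.0291) and *IRF8* by 0.42 (SE 0.13, adjusted p = 0.0400), and without Y-E replicate 6 their adjusted p was 0.0587 and 0.0714. *GATA1*, which serves eosinophils, basophils and the red cell lineage, fell by 0.81 (SE 0.22, adjusted p = 0.0402, edgeR) in Y-P vs. Y-A, the comparison in which all 4 reticulocyte markers fell, and its call was kept in 10 of 23 other fits.

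The lists of other cell types also had calls in Y-P vs. Y-E. Of 6 neutrophil markers tested 5 fell in Y-P vs. Y-E, and their summed level was 4898 to 12390 CPM in Y-E and 2641 to 5945 CPM in Y-P. Of 7 monocyte and dendritic cell markers 1 fell in that comparison, with 395.6 to 998.1 CPM in Y-E and 329.1 to 733.6 CPM in Y-P, and of 5 T cell markers 3 rose, with 700.2 to 943.6 CPM in Y-E and 831.4 to 1519 CPM in Y-P. No marker of these 3 lists was at or under 3 counts throughout. Of 3 platelet markers 1 fell, with 238.9 to 388.4 CPM in Y-E libraries and 152.7 to 207.5 CPM in Y-P libraries. Of 4 reticulocyte markers 3 fell, with 92.1 to 4472 CPM in Y-E libraries and 39.0 to 121.7 CPM in Y-P libraries. No B cell or progenitor marker passed. The part of these cells in the pathway values was not tested. In the same comparison the log2 fold changes of *IL5RA* and *CCR3* were −0.19 and −0.15, and neither passed.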

How the data were processed

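Poly(A) RNA of whole blood was sequenced in 18 libraries. The authors trimmed the reads with cutadapt 1.9, aligned them with HISAT2 2.2.1 and assembled and quantified transcripts with StringTie 2.1.6 and ballgown. The authors deposited 2 kinds of values per gene and library: FPKM, scaled by exon length and mapped fragments, and whole-number counts that were not normalized. How the counts were made, and how reads shared by paralogs were treated, is not given in the sources used here. Libraries were put into stages by their titles.

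The members and the gene lists were chosen with earlier results of these data known. Counts were tested in R 4.3.3 with edgeR 4.0.16 over the whole table: TMM scaling, filterByExpr, a quasi-likelihood fit of stage on 18 libraries, two-sided tests, and Benjamini-Hochberg adjustment over 14508 genes. CPM are counts scaled to a common total of the TMM-scaled library. Single genes were also compared by exact permutation tests. The edgeR, DESeq2 and limma tests, but not the permutation tests, were checked on simulated data. The simulated counts held no effect of the animal, so the check does not cover shared animals. The SEs and SDs cover the spread between libraries; 3 counts, the upper 95% limit for a count of 0, come to 0.0604 to 0.107 CPM and cover counting error only. Alternatives used limma 3.58.1 on log2(FPKM + 1) and log2(FPKM + 0.1), DESeq2 1.42.0, other scalings, filters and sets of libraries. Values over members, pairs and ratios were computed with pandas 2.3.3 and numpy 2.4.6.

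Genes were named by a rule: every member, up to 3 genes of each pathway list with the smallest adjusted p under 0.05 in a comparison, the 2 highest genes of a list by mean FPKM, and the 3 genes most like each member. *KIT*, *CPA3*, *IL4*, *IL13*, *IL5*, *CCL26*, *GP1BB* and the granule genes without a value were named outside this rule, after their values were seen.

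Replicate numbers were taken to mark animals, since the study followed the same 6 cows. Deviations from the stage means of libraries with the same number correlated between 0.106 and 0.687 for Y-E and Y-A, between −0.0802 and 0.511 for Y-P and Y-A, and between −0.0892 and 0.514 for Y-P and Y-E, so not every pair deviated together. The p-values without the block treat the libraries as independent.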

Additional observations from a re-analysis of the deposited data

Results flagged for a closer look

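In 30 groups of 6 libraries (7 genes and 3 ratios in 3 stages) the gap between the most extreme library and its neighbour was compared with the range of the group by Dixon's criterion, which chance passes in about 1 group in 20. It was passed by 3 groups. *CCR3* had 249 CPM in Y-E replicate 2, where the other Y-E libraries reached 153.3 CPM. *HDC* had 1.21 CPM in the same library, which rests on 37 counts. *ALOX15* had 917 CPM in Y-A replicate 4, where the other Y-A libraries reached 472.8 CPM.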

How the results depend on the processing

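Of 469 values of a member's log2 fold change under another setting, 436 kept direction and side of the threshold, 7 passed an adjusted p of 0.05 and 26 changed sign. Of 334 values of the pathway genes that had passed, 260 still passed and 74 did not, with no change of sign. In Y-P vs. Y-A the count of members with an adjusted p under 0.05 was 0 and became 1 with the replicate block, with the replicate block without Y-E replicate 6, with library size alone, and with limma on log2(FPKM + 1) and log2(FPKM + 0.1), the last of which also called 1 member at both thresholds. It ran from 0 to 2 when single libraries were left out, with 2 without Y-A replicate 4. Of all genes tested, 5.83% passed in the main fit of this comparison and 8.84% with the replicate block over the 18 libraries. The share under the other settings is not given here, so those counts cannot be set against all genes. The count of pathway genes called in Y-P vs. Y-A was 0 with library size alone and with both limma fits and 0 to 2 with a library left out, and in Y-P vs. Y-E it was 1 with limma on log2(FPKM + 1) and 2 to 5 with a library left out, reaching 5 without Y-P replicate 5. DESeq2 gave 0 members with an adjusted p under 0.05 in every comparison. The replicate block changed no other call of a member.

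The sign of *IL5RA* in Y-E vs. Y-A turned to 0.02 with the replicate block, 0.04 with the replicate block without Y-E replicate 6, and 0.05 and 0.06 in the limma fits, and ran from −0.15 to 0.23 with a library left out. In Y-P vs. Y-A it was 0.04 in both limma fits and ran from −0.35 to 0.04. *CCR3* ran from −0.01 to 0.42 in Y-E vs. Y-A, from −0.10 to 0.27 in Y-P vs. Y-A and from −0.26 to 0.05 in Y-P vs. Y-E, where library size alone gave 0.0 and both limma fits 0.03. *PTGDR2* in Y-P vs. Y-E was 0.02 with library size alone and ran from −0.33 to 0.01, and *HDC* in Y-E vs. Y-A ran from −0.52 to 0.62. The log2 difference of the ratio of *IL5RA* to *CCR3* in Y-P vs. Y-E ran from −0.09 to 0.0. With a library left out it ran from −0.26 to −0.17 in Y-P vs. Y-A and from −0.23 to −0.12 in Y-E vs. Y-A. For *ALOX15* to *IL5RA* the difference ran from 0.71 to 0.86 in Y-P vs. Y-A and from 0.29 to 0.47 in Y-E vs. Y-A. In Y-P vs. Y-E that difference ran from 0.32 to 0.5. The cause of the changes of sign was not tested. For *HDC* the depth limits every comparison. The ratios and their alternatives were chosen after seeing the data.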
